A study of Mus musculus with 6 samples.

Results

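The ribosomal protein genes of the cytosolic ribosome were compared between CD103+ and CD103- natural killer T (NKT) cells of the mouse thymus. A probe was taken as a member when its annotated symbol began with Rpl or Rps and a digit, or was Rplp0, Rplp1, Rplp2 or Rpsa; genes of the Rps6 kinases and symbols that contain -ps or end in -like were left out. This gave 96 probes for 65 genes among the 45263 probes used. A filter on detection kept 80 of these probes, for 55 genes, among 17462 kept probes for 8999 genes. NKT cells are T cells that recognise lipids presented by CD1d, and CD103, encoded by Itgae, is an integrin chain that binds E-cadherin on epithelium. Both populations were sorted as mature cells, positive for CD44 and NK1.1, from thymi of male C57BL/6 mice, and they differed in the labels only by CD103. Each population had 3 biological replicates, each on 1 Illumina array hybridised with biotin-labelled cRNA. The labels record no treatment, and neither the age of the mice nor whether mice were pooled is given there.

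The cytosolic ribosome consists of a small subunit, which holds the mRNA and is built with the Rps proteins, and a large subunit, which joins the amino acids and is built with the Rpl proteins. Rplp0, Rplp1 and Rplp2 form the P stalk of the large subunit, which recruits the translation factors that hydrolyse GTP. The mRNAs of these proteins are among the most abundant of most cells, and many begin with a run of pyrimidines after the cap, called a TOP motif, through which mTORC1 signalling controls their translation. In T cells, ribosome production is known to increase with growth after activation.

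The sequences around the transcription start of 8 genes on which the values below turn are printed to show whether each has such a run. Among ribosomal protein genes with a matched window, they comprise those with the lowest differences between CD103+ and CD103- cells (Rps25, Rpl23, Rpl41), those with the highest (Rpl35, Rps15, Rplp0), the S6 kinase substrate Rps6 and the stalk gene Rplp2. Each spans the 15 bases before and the 15 bases from the annotated start, 5′ to 3′ on the transcript's strand, from RefSeq on GRCm38.p6. Capitals mark a run that starts with C, holds only C and T over at least 7 bases, and begins within 10 bases of the start.
Rps25, chr9:44407699-44407728, + strand: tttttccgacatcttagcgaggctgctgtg
Rpl23, chr11:97782425-97782454, - strand: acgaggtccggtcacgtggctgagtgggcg
Rpl41, chr10:128549154-128549183, - strand: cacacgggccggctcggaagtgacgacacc
Rpl35, chr2:39005117-39005146, - strand: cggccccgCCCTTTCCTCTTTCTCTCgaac
Rps15, chr10:80292416-80292445, + strand: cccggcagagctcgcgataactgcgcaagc
Rplp0, chr5:115559452-115559481, + strand: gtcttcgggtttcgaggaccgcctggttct
Rps6, chr4:86857353-86857382, - strand: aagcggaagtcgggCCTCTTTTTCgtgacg
Rplp2, chr7:141447636-141447665, + strand: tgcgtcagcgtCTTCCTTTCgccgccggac
The run covered 18 bases in Rpl35, 10 in Rps6 and 9 in Rplp2, and the other 5 windows held none under this definition. RefSeq windows were matched for 54 of the 65 genes, 46 of which were neither paralogues nor genes that share only the name. Of these 46 ribosomal protein genes, 22 (47.8%) held the run, against 14.1% of 27025 genes. On the opposite strand the shares were 8.7% and 16.5%. A C followed by 4 pyrimidines exactly at the annotated start was found in 9 of the 46 (19.6%) and in 3.01% of all genes. A match describes the letters of the window, and annotated starts can lie some bases from the cap site.

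No ribosomal protein gene differed between CD103+ and CD103- cells past the threshold. Background-corrected, quantile-normalized log2 signals were compared with limma, with Benjamini-Hochberg adjustment over all 17462 probes, and 0 of the 80 ribosomal protein probes reached an adjusted p of 0.05. Over all probes 206 did, which is 1.18%, with 162 higher and 44 lower in CD103+ cells. With the replicate number as a block, 0 ribosomal protein probes and 83 probes in all (0.475%) passed. The smallest adjusted p among the ribosomal protein probes was 0.189. At an unadjusted p under 0.05, limma had 4 ribosomal protein probes higher and 1 lower in CD103+ cells, 6.25% of them, against 15.1% of all probes. In bulk samples such as these, fewer cells of a type and less RNA per cell cannot be told apart.

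In these quantile-normalized values the ribosomal protein probes also lay close to 0 as a group. Their median log2 difference, CD103+ minus CD103-, was 0.05, against 0.04 for all probes, and 49 of 80 (61.3%) lay above 0, against 55.8%. A difference within 0.2 of 0 was found for 54 of them (67.5%), against 48.1% of all probes, and a difference beyond 0.5 in either direction for 5 (6.25%), against 16%. Their spread between replicates was narrower, with a median residual SD of 0.13 log2 units against 0.246, and a median SE of the difference of 0.149 against 0.195. Within the brightest 10% of all kept probes the SE came closer. Its median was 0.141 for the 55 ribosomal protein probes there and 0.15 for the other 1691. These others were dimmer, with a median log2 value of 11.73 on every array against 14.55 to 14.65 for the 55. The groups of 3 arrays did not overlap for 22 of the 80, with 15 higher and 7 lower in CD103+ cells (27.5%), against 21.9% of all probes, of which 13% were higher and 8.92% lower. Within the brightest 10% of kept probes the shares were 29.1% for ribosomal protein probes and 27.1% for the others. Quantile normalization gives every array the same distribution of values, so it can remove a shift shared by the brightest probes. Of the 80 ribosomal protein probes 49 were in the brightest 2%. Under the other scalings given below, the ribosomal protein median lay on either side of 0.

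**Figure D1:**
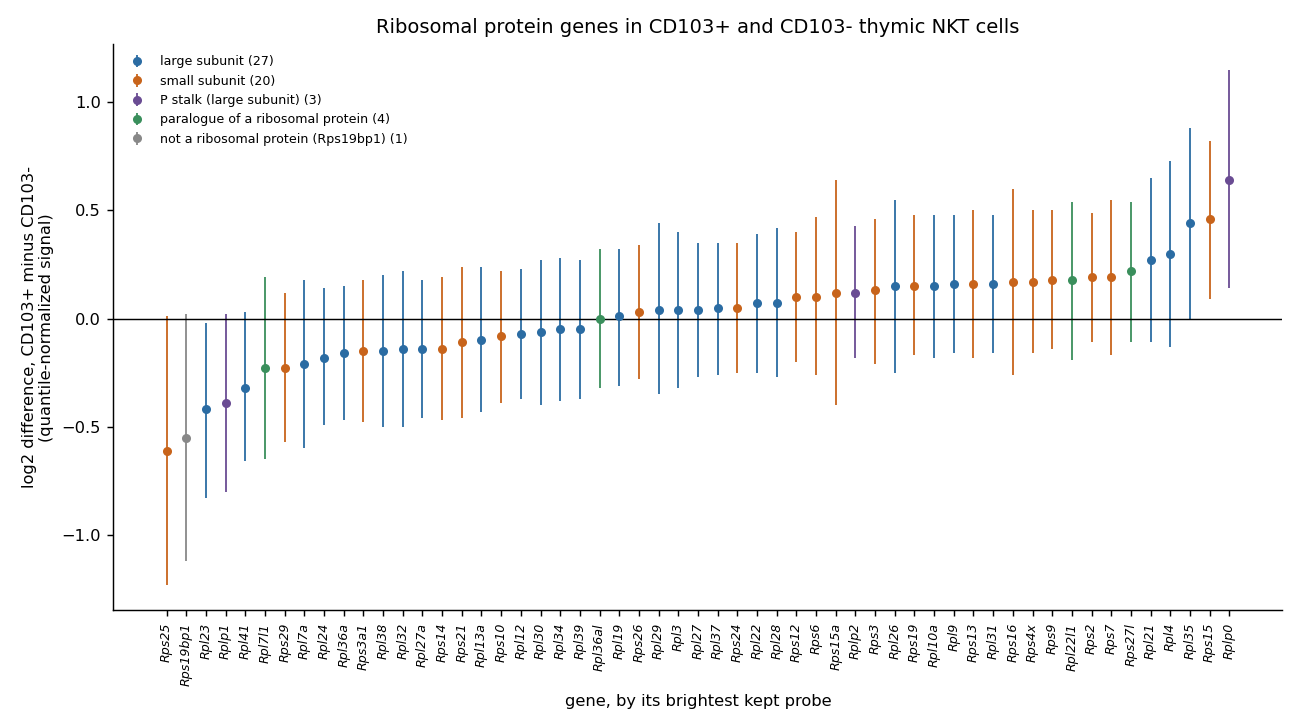
Log2 difference, CD103+ minus CD103-, of the 55 kept ribosomal protein genes, each by its brightest kept probe, with 95% confidence intervals from the limma fit (3 arrays per population). The genes run from -0.61 (Rps25) to 0.64 (Rplp0), and none passed the threshold of 0.05 on the adjusted p.

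Large-subunit genes, counted here and below without the stalk genes and the paralogues, were spread evenly about 0 in the quantile-normalized values. By the brightest kept probe of each gene, 14 of 27 lay above 0 and 13 below, with a median of 0.01 and a range of -0.42 to 0.44. Rpl35, whose protein lies near the exit of the nascent peptide, had values of 14.68, 15.21 and 14.77 on the CD103+ arrays and 14.61, 14.28 and 14.44 on the CD103- arrays. Every CD103+ value was above every CD103- value, by as little as 0.07 between the nearest pair (14.68 and 14.61). The difference was 0.44 (SE 0.19, adjusted p = 0.336).

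Rpl23, a protein at the face that meets the small subunit and a known binder of Mdm2, had a bright probe that lay lower in CD103+ cells. This probe gave 15.01, 14.66 and 15.01 in CD103+ and 15.09, 15.43 and 15.43 in CD103- cells. The groups did not overlap, and CD103+ array 2 was the lowest. The difference was -0.42 (SE 0.174, adjusted p = 0.316), while its other 3 probes gave -0.22 to 0.16. The deposited signal of the brightest probe was nearly the same on all 6 arrays, from 35330 to 40417, so its normalized difference and its rank among genes are given as values only. Rpl41, a very short basic peptide, gave 15.07, 14.78 and 15.08 in CD103+ and 15.25, 15.32 and 15.31 in CD103- cells. Here too the groups did not overlap, with CD103+ array 2 the lowest, and the difference was -0.32 (SE 0.147, adjusted p = 0.367). Its deposited signal was likewise narrow, from 31923 to 44202, with the same limit.

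Other large-subunit genes lay nearer to 0. Rpl4, which lines the exit tunnel, differed by 0.30 (SE 0.183, adjusted p = 0.485) and Rpl21 by 0.27 (SE 0.163, adjusted p = 0.481). For Rpl3, a protein near the peptidyl transferase centre, the difference was 0.04, for Rpl39 of the exit tunnel -0.05, for Rpl13a -0.10 and for Rpl36a -0.16, all with an SE of 0.133 to 0.154. Rpl22, which mice need for normal development of alpha-beta T cells, had 9.80, 9.68 and 9.73 in CD103+ and 9.58, 9.67 and 9.76 in CD103- cells. Its groups overlapped and the difference was 0.07 (95% confidence interval -0.25 to 0.39). One further probe, the dimmest of 3 for Rpl31, held the smallest adjusted p of all ribosomal protein probes. It gave 9.63, 9.89 and 9.61 in CD103+ and 9.23, 9.23 and 9.19 in CD103- cells, so the groups did not overlap. The difference was 0.49 (SE 0.143, adjusted p = 0.189), whereas the brightest Rpl31 probe gave 0.16.

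The 3 stalk genes are given in turn. Rplp0, the protein that anchors the stalk to the ribosome, had 8.43, 8.69 and 8.41 in CD103+ and 7.45, 8.18 and 7.97 in CD103- cells. All CD103+ values were above all CD103- values, and CD103- array 1 was the lowest. The difference of 0.64 (95% confidence interval 0.14 to 1.15, adjusted p = 0.237) was the highest of the 55 genes, and the second, dimmer Rplp0 probe gave 0.42. The brighter probe was itself dim, with a mean of 8.19 against array medians of 13.86 to 14.01 over all ribosomal protein probes. The confidence intervals given for single genes take no account of their choice among the 55.

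Rplp1 and Rplp2 pair in the stalk. Rplp1 gave 15.03, 14.60 and 15.11 in CD103+ and 15.20, 15.36 and 15.36 in CD103- cells, with a difference of -0.39 (SE 0.176, adjusted p = 0.355). Rplp2 gave 15.08, 14.96 and 14.95 against 14.88, 14.85 and 14.89, with a difference of 0.12 (SE 0.13, adjusted p = 0.689). In neither did the groups overlap, and for Rplp1 CD103+ array 2 was the lowest of the 6. The deposited signal of the Rplp1 probe varied little, from 34141 to 42815, and its difference without correction or normalization was 0.04, so its direction relative to Rplp2 is not settled by these values.

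Small-subunit genes had more members above 0 than below in the quantile-normalized values, but not under every scaling. Of 20 genes 14 lay above and 6 below, with a median of 0.11 and a range of -0.61 to 0.46. Of all 8999 genes 5116 lay above 0. In the authors' values 2 of the 20 lay above 0 and 18 below. Without correction or normalization all 20 lay above 0, as did 8995 of the 8999 genes. Without CD103- arrays 2 and 3 the quantile-normalized median of the 20 was 0.01. Rps15, which reaches towards the decoding centre, gave 13.51, 13.90 and 13.78 in CD103+ and 13.28, 13.19 and 13.36 in CD103- cells. The groups did not overlap, and the difference was 0.46 (95% confidence interval 0.09 to 0.82, adjusted p = 0.244). Rps25, which initiation at some viral and cellular internal entry sites requires, gave 12.81, 12.23 and 12.70 against 12.68, 13.38 and 13.51. CD103- array 1 lay among the CD103+ values and the other CD103- arrays lay above them, and the difference was -0.61 (SE 0.265, adjusted p = 0.337).

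Rps6, the substrate of the S6 kinases, showed no separation. Its values were 14.39, 14.28 and 14.47 in CD103+ and 14.38, 14.06 and 14.39 in CD103- cells, and the difference was 0.10 (95% confidence interval -0.26 to 0.47). Rps19, a gene mutated in human Diamond-Blackfan anaemia, differed by 0.15 (SE 0.138) and the X-linked Rps4x by 0.17 (SE 0.141). The second Rps19 probe was among the dimmest, with 4.90, 5.52 and 5.17 in CD103+ and 5.10, 6.76 and 6.14 in CD103- cells, and gave -0.80 (SE 0.403). Its groups overlapped. The 3 brightest genes were Rps12 (0.10), Rps2 (0.19) and Rps29 (-0.23), of which Rps29 is a zinc-binding protein of the small subunit. Rps15a, among the 3 dimmest with Rpl21 and Rps19bp1, differed by 0.12 (SE 0.222).

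Paralogues, which can replace or accompany a standard ribosomal protein, were measured for 4 genes. Rps27l, a p53 target, gave 12.31, 12.39 and 12.53 in CD103+ and 12.15, 12.16 and 12.28 in CD103- cells. The groups did not overlap, and the difference was 0.22 (SE 0.139, adjusted p = 0.508). Rpl22l1, the paralogue of Rpl22, gave 10.20, 10.36 and 10.06 against 10.03, 10.18 and 9.88, with overlapping groups and a difference of 0.18 (SE 0.156, adjusted p = 0.629). Rpl36al differed by 0.00 (SE 0.137) and Rpl7l1 by -0.23 (SE 0.18). Rps19bp1, which encodes a binding partner of Rps19 and entered by its symbol alone, differed by -0.55 (SE 0.244, adjusted p = 0.348), with overlapping groups.

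Probes of 1 gene did not always share a direction. For 18 genes with several kept probes (43 probes), the range between probes had a median of 0.18, and in 6 genes the probes lay on both sides of 0. The widest ranges were those of Rps19 (0.96), Rpl21 (0.84) and Rpl23 (0.58). The outlying Rps19 probe was detected on 3 of 6 arrays and that of Rpl21 on 4, while all 4 Rpl23 probes were detected on 6. Ribosomal protein genes have many processed pseudogenes, and probe sequences were not used here, so signal from such copies cannot be told apart from that of the gene.

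The other 16 ribosomal protein probes were detected on at most 2 arrays. Among them were both probes of Rpsa, whose protein also serves as a laminin receptor, and the single probes of Rpl6, Rpl14, Rpl17, Rps20 and Rps23, so 10 genes had no kept probe. The muscle and germline paralogues Rpl3l and Rpl39l were detected on 0 arrays. Rps4l, annotated as a transcribed pseudogene, was detected on 2 arrays, and Rps23rg1, another gene that shares only the name, on at most 1. Rpl5, Rpl7, Rpl10, Rpl10l, Rpl11, Rps27 and Rps27a were not analysed here.

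Genes with and without a pyrimidine run both had medians near 0 in the quantile-normalized values. The 21 measured genes with the run had a median difference of 0.05 and a range of -0.21 to 0.44. The 21 without it had a median of 0.13 and a range of -0.61 to 0.64, so the first range lay within the second. In the authors' log2 values, described below, the medians were -0.40 with the run and -0.36 without. These medians carry no test.

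In the quantile-normalized values, 6 further lists, mostly of the translation machinery, also had medians near 0. Their single genes ran from -0.53 (Eif3h, SE 0.171) to 1.02 (Larp4, SE 0.347, detected on 5 arrays). Of the 167 measured members 0 passed the threshold of the limma test, against 1.18% of all probes. At an unadjusted p under 0.05 limma had 9 of them, against 15.1% of all probes. Among 19 measured genes for other ribosomal and TOP-regulated factors, 10 lay above 0 and 9 below, with a median of 0.01. Among 72 mitochondrial ribosomal protein genes, 34 lay above and 38 below, with a median of -0.02. Genes of ribosome biogenesis had 21 of 32 above 0 (median 0.07), and other translation factors 13 of 20 (median 0.05). For mTORC1 and S6 kinase genes 9 of 14 lay above 0 (median 0.13). For reference genes often used to scale expression, 7 of 10 lay above 0 (median 0.12). The median over all 8999 genes was 0.05. In the authors' values these lists lay higher, apart from the first and the last: the median was 0.17 for mitochondrial ribosomal proteins, with 61 above 0 and 11 below, 0.24 for ribosome biogenesis (27 of 32 above), 0.16 for other translation factors (15 of 20) and 0.27 for mTORC1 and S6 kinase genes (11 of 14). It was -0.01 for other ribosomal and TOP-regulated factors and 0.11 for reference genes, against 0.16 for all genes, and 0 members passed there.

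The arrays themselves differed in brightness, and this difference partly followed the populations. Mean deposited signal was 612.7, 825.9 and 501.6 on CD103+ arrays 1, 2 and 3, and 526.1, 277.4 and 276.5 on CD103- arrays 1, 2 and 3. CD103- arrays 2 and 3 were thus the dimmest, while CD103- array 1 lay within the CD103+ range. All kept probes for Itgae, the gene of the sort marker, lay higher in the samples labelled CD103+. Of the markers of other cells, 8 of 9 measured macrophage genes passed the threshold, higher in CD103+ cells, against 1.18% of all probes in either direction. Their mean level was 7.36 to 7.88 on CD103+ and 4.90 to 5.07 on CD103- arrays, against 11.34 to 11.40 and 11.53 to 11.56 for 9 measured NKT and T-cell genes, of which 0 passed. C1qa, C1qb, C1qc, Adgre1, Fcgr3 and Apoe were detected on at most 3 arrays, the fewest that the filter admits. They can thus have entered the test through the CD103+ arrays alone. The CD103- level of the macrophage genes was near that of undetected probes, such as 4.68 for Rpl6, detected on 0 arrays. The part of the macrophage genes in the ribosomal protein values was not tested. Of the other lists, 1 of 6 B-cell, 4 of 7 double positive thymocyte and 1 of 4 erythroid markers were measured, and 0 of these passed; 0 of 5 thymic epithelial markers were measured.

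Ribosomal protein probes stood at the bright end of every array. Their median rank among kept probes was between percentile 98.97 and 99.08 on the 6 arrays. Of the 80, 55 (for 48 genes) were in the brightest 10%, a class of 1746 probes, and 49 were in the brightest 2%, a class of 349 probes. These are ranks of probe signals, which also depend on how well each probe binds. The ribosomal protein probes held 5.68%, 4.88% and 6.05% of the summed signal on the CD103+ arrays and 6.31%, 6.47% and 6.25% on the CD103- arrays. The groups did not overlap, and CD103+ array 2, the brightest array, had the lowest share. After subtraction of each array's background level the shares were 7.32%, 5.99% and 8.07% against 8.39%, 11.31% and 11.04%.

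In the deposited signal, some of the brightest ribosomal protein probes were nearly equal on arrays whose mean signal differed widely. The brightest Rpl23 probe gave 39501, 38159 and 35330 on the CD103+ arrays and 40417, 37763 and 37745 on the CD103- arrays. The latter pair were the highest signals of any probe on CD103- arrays 2 and 3. As log2 without correction, the difference was -0.04 for Rpl23, 0.04 for Rplp1, 0.09 for Rpl41 and 0.12 for Rps29, against a median of 0.80 for all probes. A ribosomal protein probe of lower signal, that of Rps15, gave 15121, 25703 and 14312 against 10504, 3931 and 4453. It was highest on the brightest array and lowest on the 2 dimmest, and it was lower on CD103- array 1 than on CD103+ array 3, whose mean signal is the lower of the pair. Between CD103+ array 2 and CD103- array 3, the brightest and the dimmest, the median fold in signal was 2.76 for the 49 ribosomal protein probes of the brightest 2%. It was 3.74 for the other 300 probes of that class and 5.04 for the 1691 other probes of the brightest 10%. These sets also differed in level, with the ribosomal protein probes the brightest, so the folds were not compared at equal brightness. The highest signal on any array was 48531.

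**Figure D2:**
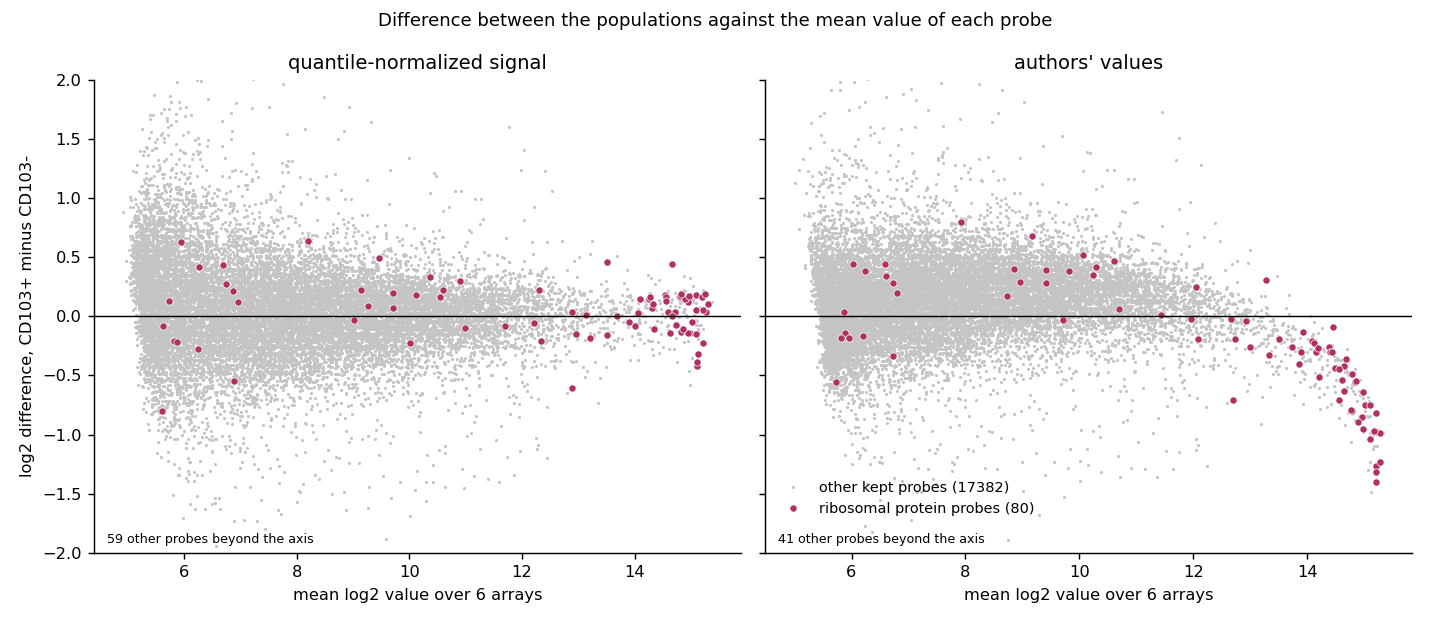
Log2 difference, CD103+ minus CD103-, of every kept probe against its mean log2 value over 6 arrays, in quantile-normalized values and in the authors' log2 values; ribosomal protein probes are coloured, and the vertical axis is limited to 2 in each direction. The ribosomal protein probes lie about 0 in the first set of values (median 0.05) and bend below 0 at the bright end of the second (median -0.26).

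In the authors' own log2 values, most ribosomal protein probes lay lower in CD103+ cells, but 0 of 80 passed the limma threshold there either, against 1.79% of all probes. At an unadjusted p under 0.05 limma had 37 of the 80, against 19.1% of all probes. The median difference was -0.26, against 0.13 for all probes, and 57 of 80 lay below 0. The groups did not overlap for 42 of the 80, with 14 higher and 28 lower in CD103+ cells (52.5%), against 25% of all probes, of which 19.4% were higher and 5.54% lower. The large-subunit genes had a median of -0.30 and the small-subunit genes of -0.46. The smallest adjusted p, 0.056, was that of Rplp0, which lay 0.80 higher in CD103+ cells. In these values the bright ribosomal protein probes lay lower and the dim ones higher: the 55 in the brightest 10% had a median of -0.44 with 50 below 0, and the other 25 a median of 0.29 with 18 above 0.

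The lowest differences in the authors' values were those of 4 bright probes whose deposited signal varied little between arrays, Rpl23, Rplp1, Rpl41 and Rps29. Rpl23 gave 14.67, 13.99 and 14.89 in CD103+ and 15.02, 16.36 and 16.35 in CD103- cells, a difference of -1.40 (adjusted p = 0.0899). Rps29 gave 14.77, 14.12 and 15.06 against 15.24, 16.26 and 16.16, a difference of -1.23 (adjusted p = 0.0803). For both genes the groups did not overlap, CD103+ array 2 was the lowest, and CD103- arrays 2 and 3 were the highest. Between them lay Rplp1 with -1.32 (adjusted p = 0.0924) and Rpl41 with -1.27 (adjusted p = 0.0803), again without overlap. Rps12, the brightest gene, stood at -0.99. Rplp2, at 0.12 in the quantile-normalized values, stood at -0.56 in the authors' values, Rps2 at -0.82 against 0.19, and Rpl35 at -0.09 against 0.44. Rps15 lay above 0 in both, with 0.46 and 0.31.

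**Figure D3:**
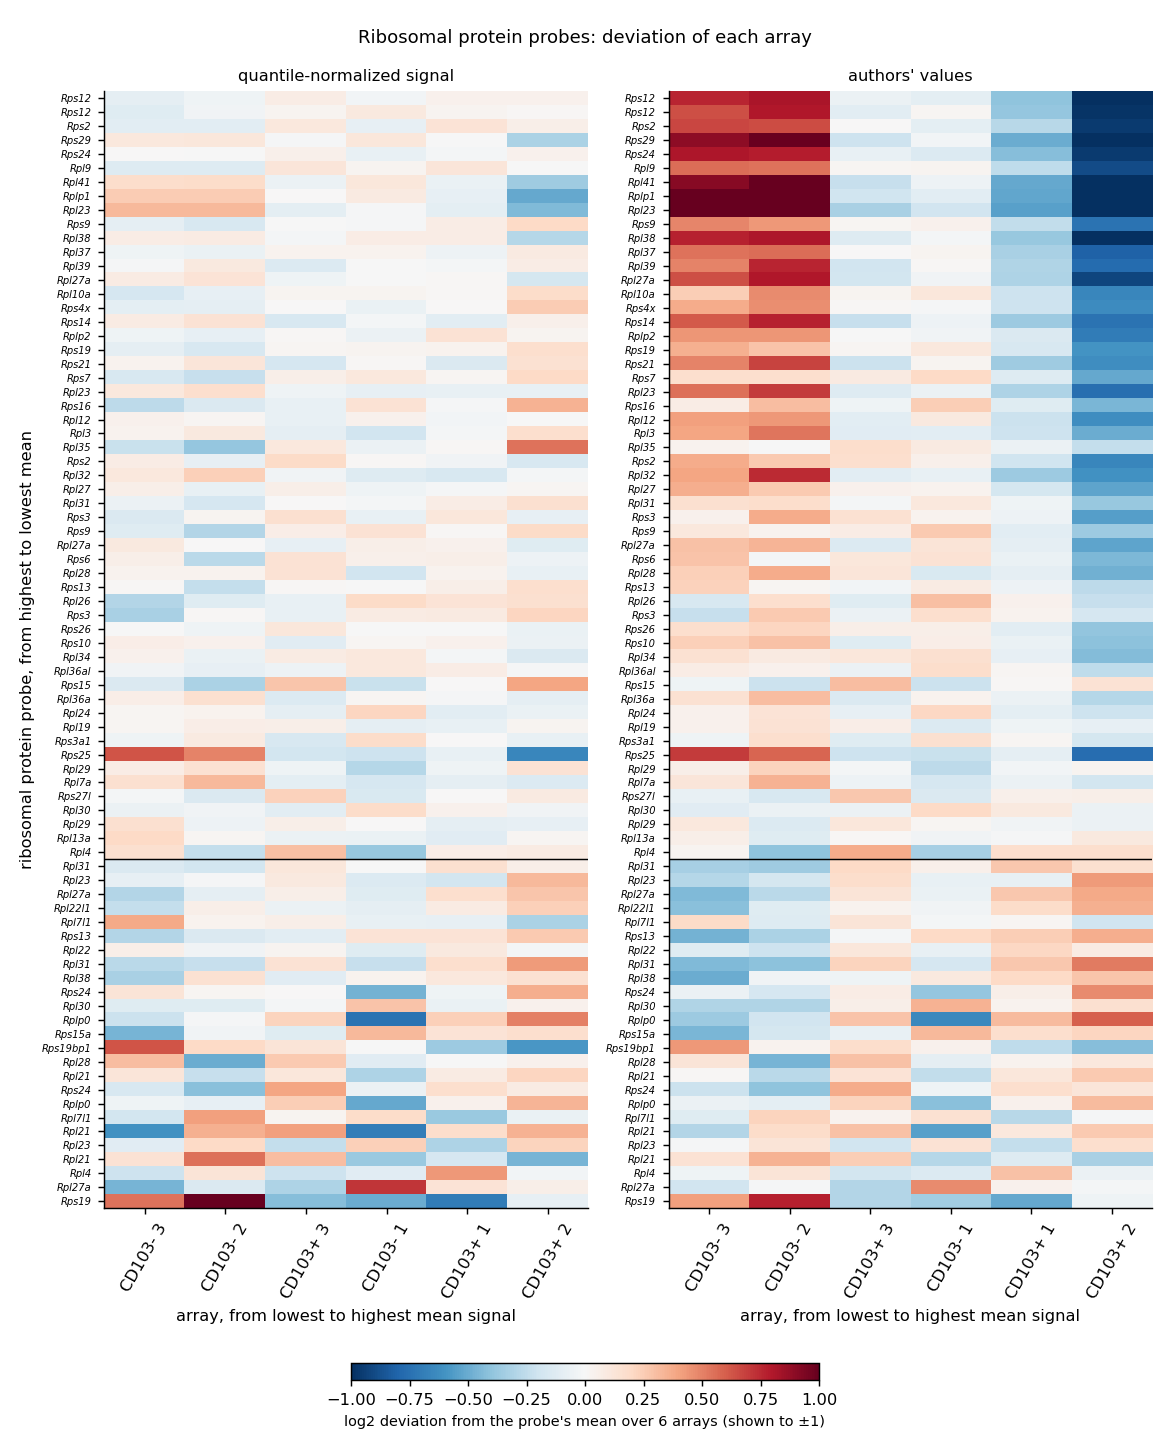
Deviation of each of the 80 kept ribosomal protein probes from its own mean over the 6 arrays, in log2 units of the quantile-normalized values (left) and of the authors' values (right), with colours limited to 1 in each direction. Arrays run from the lowest to the highest mean signal, probes from the highest to the lowest mean, and the line separates the 55 in the brightest 10% of all kept probes; in the authors' values the brightest probes are high on CD103- arrays 2 and 3 and low on CD103+ array 2, as with Rpl23 (16.36 and 16.35 against 13.99).

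The order of the arrays in the authors' values ran against their brightness. The median of the 55 bright ribosomal protein probes was 14.36, 13.96 and 14.52 on CD103+ arrays 1, 2 and 3, and 14.51, 14.81 and 14.73 on CD103- arrays 1, 2 and 3. The brightest array had the lowest value and the 2 dimmest arrays the highest, and CD103- array 1 lay with CD103+ array 3, which has a mean signal close to its own. In the deposited signal, as log2 without correction, the same medians were 14.96, 15.18 and 14.74 against 14.80, 13.66 and 13.59. After quantile normalization they were 14.63, 14.61 and 14.65 against 14.55, 14.58 and 14.55. Among the other 300 probes of the brightest 2%, 82.3% lay below 0 in the authors' values with a median of -0.24, against 98.0% and -0.51 for the 49 ribosomal protein probes. Among the other 1691 probes of the brightest 10% the median was 0.07 and 39.0% lay below 0, against -0.44 and 90.9% for the 55 ribosomal protein probes. Neither comparison was at equal brightness. The 300 had quantile-normalized medians of 13.75 to 13.78 per array, against 14.67 to 14.73 for the 49. The 1691 stood at 11.73, against 14.55 to 14.65 for the 55. The lower values were thus found among other probes at the very bright end, a class chosen after the values were seen, and not over the whole brightest 10%. Eef1a1, an elongation factor with a TOP mRNA, moved from -0.07 to -0.97 between the quantile-normalized and the authors' values, and the reference gene B2m from -0.13 to -0.84. Whether brightness of the arrays or the population sets these values cannot be told apart. Without CD103- arrays 2 and 3 only 1 CD103- array remains, which cannot decide it either.

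**Figure D4:**
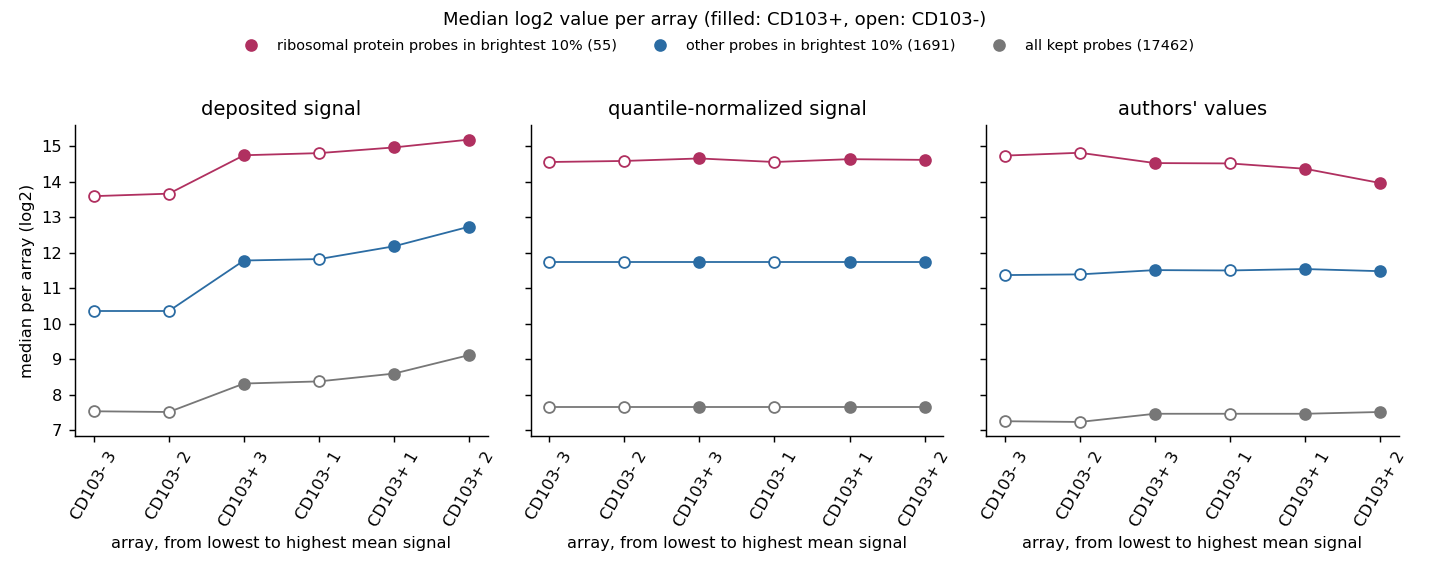
Median log2 value on each array for bright ribosomal protein probes and for comparison probes in 3 sets of values, with arrays ordered by mean deposited signal; filled symbols are CD103+ and open symbols CD103- arrays. The bright ribosomal protein probes run from 13.59 to 15.18 without normalization, from 14.55 to 14.65 after quantile normalization, and from 13.96 to 14.81, in nearly the reverse order, in the authors' values.

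The direction of the ribosomal protein median depended on the scaling. Without background correction or normalization it was 0.91, against 0.80 for all probes, and 21 ribosomal protein probes passed the limma threshold, all higher, against 25.6% of all probes. With each array scaled to the median of all its probes it was 0.69 against 0.96, and 19 passed, against 41.0% of all probes. With cyclic loess it was -0.18 against -0.00, with scaling to the 75th percentile -0.20 against 0.07, and with scaling to the median of the kept probes -0.34 against -0.07. In the last 3, 0 ribosomal protein probes passed, against 1.39%, 1.71% and 0.899% of all probes, with 25, 33 and 39 of the 80 at an unadjusted p under 0.05 in limma, against 15.9%, 23.5% and 22.4% of all probes. Scaling to the ribosomal protein probes themselves, as a set of reference genes, moved the median of all probes to 0.21, with 197 higher and 48 lower. When CD103- arrays 2 and 3 were left out, the ribosomal protein median was 0.02 in the quantile-normalized values and -0.24 in the authors' values, against -0.01 and 0.02 for all probes. That leaves 1 CD103- array against 3 CD103+ arrays, and the lone array is assumed to vary like the CD103+ arrays.

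**Figure D5:**
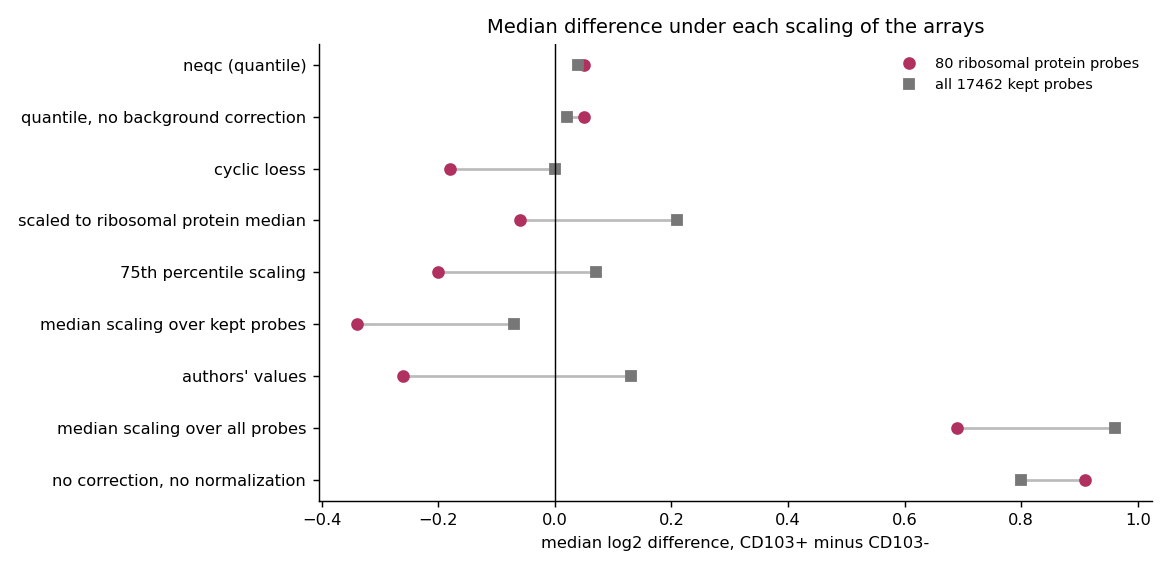
Median log2 difference, CD103+ minus CD103-, of the ribosomal protein probes and of all kept probes under 9 ways of scaling the arrays. The ribosomal protein median runs from -0.34 with scaling to the median of the kept probes to 0.91 without normalization, and it lies near 0 where arrays were quantile-normalized.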

How the data were processed

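Total RNA of 6 sorted samples was measured on Illumina arrays. The deposited intensity values are 1 signal per probe and array, without normalization and with background included, and a detection p-value stands beside each, per the file headers. The authors also deposited log2 values. Their direction is that of the signal, while the scaling and centring behind them are not given in the sources used here. Of 45281 probes, 18 with shifted values were left out; 34874 had 1 symbol, 18 several and 10371 none, by GEO's platform annotation. The function neqc of limma 3.58.1 in R 4.3.3 subtracted a background estimated from the detection p-values, added an offset of 16, applied quantile normalization and took log2. A probe entered the test if its detection p was below 0.05 on 3 or more of the 6 arrays. Populations were compared two-sided with lmFit and eBayes, adjusted by Benjamini-Hochberg over all kept probes, at a threshold of 0.05. The fit was tested on simulated data. An exact permutation test of 3 arrays against 3 cannot go below 0.1, and the number of arrays limits the precision.

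A gene was represented by its brightest kept probe. The named genes were those past the threshold, the 6 highest and 6 lowest differences, the 3 brightest, the 3 dimmest and a fixed list; the dimmest Rpl31 probe was named after its values were seen. Members and lists were chosen with earlier results of these data known. Replicate numbers are shared between the populations; deviations from the population means correlated at 0.17, 0.125 and 0.305 for equal numbers and at -0.231 to 0.0824 for others, so a fit with the number as a block was also made. Other normalizations, filters and fits, and each array left out, were tried as alternatives.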

Additional observations from a re-analysis of the deposited data

How the results depend on the processing

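The results were recomputed under 26 other settings. Ribosomal protein probes passed the threshold in 2 of them: 21 probes for 13 genes without correction or normalization, 9 of these genes named here, and 19 probes for 7 genes with median scaling, 7 of them named. The replicate block gave 83 probes in all and changed no call of a ribosomal protein gene. The count of 206 probes became 324 without background correction, 4464 without correction or normalization, 7154 with median scaling, 313 with the authors' values, 369 with a trended robust fit, 397 with array weights, 135 without CD103- arrays 2 and 3 (1 CD103- array, assumed to vary like the CD103+ arrays), 9 with mean array signal as a covariate, 60 at an adjusted p of 0.01, and 52 to 857 with 1 array left out, the highest without CD103- array 1. Of the called probes 78.6% were higher in CD103+ cells, and 52.9% to 100% under the other scalings. The comparison lists had 103 called genes without normalization, 101 with median scaling, 1 without CD103- arrays 2 and 3 in each of the normalized and the authors' values, and 0 to 2 with 1 array left out.

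The ribosomal protein median of 0.05 became 0.91 without normalization, 0.69 with median scaling, -0.18 with cyclic loess, -0.06 scaled to itself, -0.34 with kept-probe medians, -0.20 with the 75th percentile, -0.26 with the authors' values, -0.43 with these centred, -0.24 with these without CD103- arrays 2 and 3, 0.16 outside the brightest 10%, and 0.04 to 0.07 with 1 array left out. In the same order, where it moved, the median of all probes was 0.80, 0.96, 0.21 (scaled to the ribosomal protein probes), -0.07 (kept-probe medians), 0.13 (authors' values) and -0.03 (centred). The gap between these medians was 0.11 without normalization, -0.27 with median, kept-probe, 75th percentile and ribosomal protein scaling, -0.18 with loess, -0.40 with the authors' values, centred or not, and -0.25 with these on the bright arrays. The large-subunit median was, in the order given for all ribosomal protein probes but without the scaling to themselves, 1.01, 0.68, -0.24, -0.34, -0.20, -0.30, -0.47 and -0.26, and the small-subunit median 0.83, 0.53, -0.30, -0.49, -0.36, -0.46, -0.62 and -0.29, with -0.21 when scaled to the ribosomal protein probes. The share of signal differed by -3.12 percentage points after background subtraction, and the percentile by -0.08 with all probes ranked. Single genes that passed did so without normalization or with median scaling, and Rpl7l1 (1.12) and Rpl13a (1.30) there turned above 0. The cause of these changes was not tested, beyond the fewer arrays of the smaller fits.

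The 4 settings that follow were chosen after seeing the data: kept-probe medians, the authors' values on the bright arrays, members without the 2 genes sharing only the name, and those outside the brightest 10%; the brightest 2% was also chosen then. Bead-level data and probe sequences were not used here.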
